A study of Mus musculus with 7 samples.

Results

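The genes of the immunoproteasome and of MHC class I antigen presentation were examined in the hippocampus of mice that received the immunoproteasome inhibitor ONX-0914 for 2 months. The rule that chose the members used names and no measured value, and it gave the 10 genes Psmb8, Psmb9, Psmb10, Psme1, Psme2, Tap1, Tap2, B2m, H2-D1 and H2-K1. All 10 were matched by Ensembl identifier among the 55416 genes listed in each count table, and all 10 passed the filter on low counts that left 13152 genes for testing.

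The proteasome is a barrel-shaped protease complex, and in most cells its catalytic sites are those of the subunits encoded by Psmb5, Psmb6 and Psmb7. In immune cells, and in other cells exposed to interferon, these subunits can be replaced by those encoded by Psmb8 (LMP7), Psmb9 (LMP2) and Psmb10 (MECL-1), and Psme1 and Psme2 encode the subunits of the PA28 activator that caps the barrel. The resulting peptides are moved into the endoplasmic reticulum by the transporter encoded by Tap1 and Tap2 and are loaded onto class I molecules, which consist of a heavy chain (H2-D1 or H2-K1) and β2-microglobulin (B2m). In the brain these genes are generally associated with microglia and the vasculature, although neurons can express class I molecules too.

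RNA-seq was performed on hippocampi of age-matched male mice of the outbred CD1 stock, 1 library per sample, single-end with reads of 100 bases. There were 3 libraries from untreated control mice, numbered 1 to 3, and 2 from mice given DMSO, numbered 2 and 3. The group given ONX-0914 consisted of 2 libraries, numbered 1 and 2. ONX-0914, an epoxyketone with a preference for the Psmb8 subunit, was injected intraperitoneally at 10 mg/kg, 2 times per week for 2 months, and DMSO, its solvent, was injected in equal volume on the same schedule. ONX-0914 acts on the protein and no gene was deleted in these mice, so that no member serves as a check of the labels. The labels do not say whether each library came from a separate animal. The p-values below therefore measure the spread between these libraries.

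The libraries of the ONX-0914 group stood apart from the rest and from each other. The total count on genes was 13782270 in ONX-0914 replicate 2, while the other 6 ranged from 2842675 to 3877006. A chi-square statistic per degree of freedom, computed on the counts of each pair, was 2.56 to 3.19 among control libraries, 3.28 between the DMSO libraries and 93.2 between the ONX-0914 libraries. For a given difference this statistic grows with depth, so the 93.2 in part reflects the depth of ONX-0914 replicate 2. ONX-0914 replicate 1, with a total like those of the control and DMSO libraries, gave 19.3 to 24.2 against them. Pairs of a control and a DMSO library gave 3.18 to 7.3. Markers of hippocampal neurons (8 genes, among them Prox1 and Wfs1) summed to 258 counts scaled to the library size (CPM) in ONX-0914 replicate 1, to 883 in replicate 2 and to 1100 to 1150 in the control and DMSO libraries. In the same replicate 1, 8 thalamic markers summed to 1090 CPM and 8 striatal markers to 1220 CPM, against 94.2 to 139 and 175 to 251 in the other 6 libraries. Hence, the levels of defining hippocampal genes in the library labelled ONX-0914 replicate 1 went against its tissue label. In bulk tissue, fewer cells of a type and less RNA per cell cannot be told apart. For this reason the members are given below with the levels of both ONX-0914 replicates.

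Of the members, 6 lie on chromosome 17, in or near the MHC region (Psmb8, Psmb9, Tap1, Tap2, H2-D1 and H2-K1). Psme1 and Psme2 lie on chromosome 14, Psmb10 on chromosome 8 and B2m on chromosome 2. Psmb9 and Tap1 are read in opposite directions, and in the RefSeq table of mouse promoters (build GRCm38.p6, C57BL/6J reference) their starts are 225 bases apart. The table held 9 of the 10 members, without Tap2. In the 250 bases before each start, 4 motifs were searched on both strands: an interferon-stimulated response element (ISRE) core, which is GAAA, 2 bases of any kind and GAAA again, a shorter core bound by interferon regulatory factors (IRF), AANNGAAA, which lies within the first, a gamma-activated site (GAS) bound by STAT factors, TTCNNNGAA, and the NF-κB consensus. They occurred in 3.04%, 21.6%, 7.18% and 7.01% of all 27025 windows of this length. B2m had 1 ISRE core, with the IRF core inside it, and an NF-κB match 3 bases further on. H2-D1 and H2-K1 each had an NF-κB run of 11 bases, followed after 10 bases by an IRF core on the strand opposite to the gene. Psmb8 had 1 GAS match, and no match to any of the 4 motifs was found in the windows of Psmb9, Psmb10, Psme1, Psme2 and Tap1. The windows of the 3 class I chains, whose levels are described first below, and that of Psmb8, the subunit for which the inhibitor has a preference, are printed 5′ to 3′ on the strand of the gene, with the matches in capitals. They lie at chr17:35262844-35263093 (H2-D1, plus strand), chr17:34000348-34000597 (H2-K1, minus strand), chr2:122147437-122147686 (B2m, plus strand) and chr17:34197945-34198194 (Psmb8, plus strand) in GRCm38.p6.
H2-D1: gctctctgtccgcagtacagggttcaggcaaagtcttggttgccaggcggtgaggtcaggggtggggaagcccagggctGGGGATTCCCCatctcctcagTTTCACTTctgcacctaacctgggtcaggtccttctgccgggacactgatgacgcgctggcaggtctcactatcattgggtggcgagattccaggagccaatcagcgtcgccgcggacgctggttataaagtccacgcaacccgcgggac
H2-K1: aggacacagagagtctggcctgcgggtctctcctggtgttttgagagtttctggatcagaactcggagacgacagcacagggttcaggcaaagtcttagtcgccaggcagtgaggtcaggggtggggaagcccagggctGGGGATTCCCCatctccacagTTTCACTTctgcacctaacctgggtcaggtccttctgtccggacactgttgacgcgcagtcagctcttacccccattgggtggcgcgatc
B2m: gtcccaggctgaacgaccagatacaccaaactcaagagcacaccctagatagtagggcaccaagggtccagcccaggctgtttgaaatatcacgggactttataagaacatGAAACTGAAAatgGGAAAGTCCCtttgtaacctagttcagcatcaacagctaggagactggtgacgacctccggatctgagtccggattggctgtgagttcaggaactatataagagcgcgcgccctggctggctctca
Psmb8: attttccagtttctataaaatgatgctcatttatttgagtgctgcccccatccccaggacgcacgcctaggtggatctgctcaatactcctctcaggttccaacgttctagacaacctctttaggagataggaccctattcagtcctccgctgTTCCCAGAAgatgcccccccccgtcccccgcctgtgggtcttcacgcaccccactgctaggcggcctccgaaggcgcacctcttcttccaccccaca

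**Figure D1:**
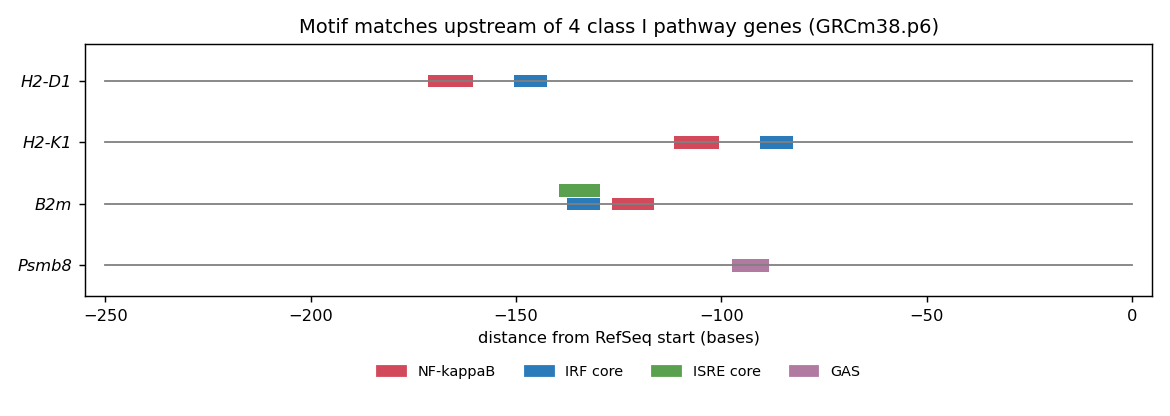
Positions of the motif matches in the 250 bases before the RefSeq start of 4 genes (x axis, distance from the start in bases; 1 line per gene; coloured boxes, matches). The NF-κB and IRF matches of H2-D1 and H2-K1 show the same spacing of 10 bases, whereas in B2m the order is the opposite, with 3 bases between the matches.

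The H2-D1 and H2-K1 windows shared an identical run of 47 bases. The IRF and NF-κB matches of H2-D1 lay 143 to 171 bases before its start and those of H2-K1 lay 83 to 111 bases before its start, as seen in the map of motif positions. In B2m the matches lay 117 to 139 bases before the start, and the GAS match of Psmb8 lay 89 to 97 bases before. These matches describe the letters of the reference sequence and were not tested for binding.

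The heavy chains H2-D1 and H2-K1, which hold the presented peptide, were the members in which both ONX-0914 libraries lay above all other libraries. The level of H2-D1 (ENSMUSG00000073411) was 89.5, 105 and 78.5 CPM in control replicates 1, 2 and 3, 98.7 and 90.3 CPM in DMSO replicates 2 and 3, and 125 and 115 CPM in ONX-0914 replicates 1 and 2. The level of H2-K1 (ENSMUSG00000061232) was 21.0, 27.8 and 23.1 CPM in the control libraries, 26.6 and 24.3 CPM in the DMSO libraries, and 35.2 and 31.9 CPM in the ONX-0914 libraries. For both genes the ONX-0914 libraries overlapped with neither of the other groups, whereas the DMSO libraries lay within the control range.

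Between ONX-0914 and control the log2FC was 0.40 (SE 0.176) for H2-D1, a ratio of 1.32, and 0.48 (SE 0.198) for H2-K1, a ratio of 1.39. Neither passed the FDR threshold of 0.05 in edgeR's quasi-likelihood test with Benjamini–Hochberg adjustment over all genes tested (FDR = 0.274 and 0.249, unadjusted p = 0.0529 and 0.0413). Both ONX-0914 libraries lay above all control and DMSO libraries for 2 of the 10 members, and for 11.4% of all genes tested, which is the background for this count. None of the members had both ONX-0914 libraries under the control range (16.3% of all genes), and in none did both DMSO libraries lie above (15.7% of all genes) or below (15% of all genes) all control libraries. Without ONX-0914 replicate 1 the log2FC was 0.32 for H2-D1 (FDR = 0.0612) and 0.39 for H2-K1 (FDR = 0.064), and without ONX-0914 replicate 2 it was 0.46 (FDR = 0.0372, past the threshold) and 0.54 (FDR = 0.0712). These fits assume that a lone library varies like those of the other groups. Between ONX-0914 and DMSO the log2FC was 0.34 (FDR = 0.422) for H2-D1 and 0.40 (FDR = 0.409) for H2-K1, and between DMSO and control it was 0.06 and 0.08 (FDR of 1 in both).

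Parts of the heavy chain transcripts are shared with related genes. Of the windows of 100 bases along its annotated transcripts, 3.59% of those of H2-D1 and 0.957% of those of H2-K1 also occurred in other genes, such as H2-Q6 and H2-Q7. The heavy chains are also highly polymorphic between mice, CD1 is an outbred stock, and the reads were aligned to a single reference genome. The part of this in the counts was not tested.

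B2m, which encodes the light chain shared by all class I molecules, was high in a single library. Its level (ENSMUSG00000060802) was 18.2, 16.9 and 11.3 CPM in the control libraries, 19.0 and 12.9 CPM in the DMSO libraries, and 15.6 and 70.6 CPM in replicates 1 and 2 of the ONX-0914 group. Replicate 2 was thus 3.71 times the highest of the other 6 libraries, while replicate 1 lay within the range of the control group. A value of over 2 times the highest of the other 6 libraries was found in this replicate for 2.71% of all genes tested. Between ONX-0914 and control, the log2FC of B2m was 1.52 (SE 0.536, 95% interval 0.29 to 2.75, FDR = 0.202, unadjusted p = 0.0214), and it did not pass the threshold in edgeR's quasi-likelihood test. Without ONX-0914 replicate 2 the log2FC was 0.03 (FDR = 0.968), and without ONX-0914 replicate 1 it was 2.20 (FDR = 9.67e-09). Against DMSO, the log2FC of B2m with ONX-0914 was 1.46 (SE 0.608, FDR = 0.326), and between DMSO and control it was 0.06 (SE 0.587, FDR of 1). With no filter on low counts, B2m alone of the members was called (FDR = 0.0251), and 2.15% of all genes tested were.

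**Figure D2:**
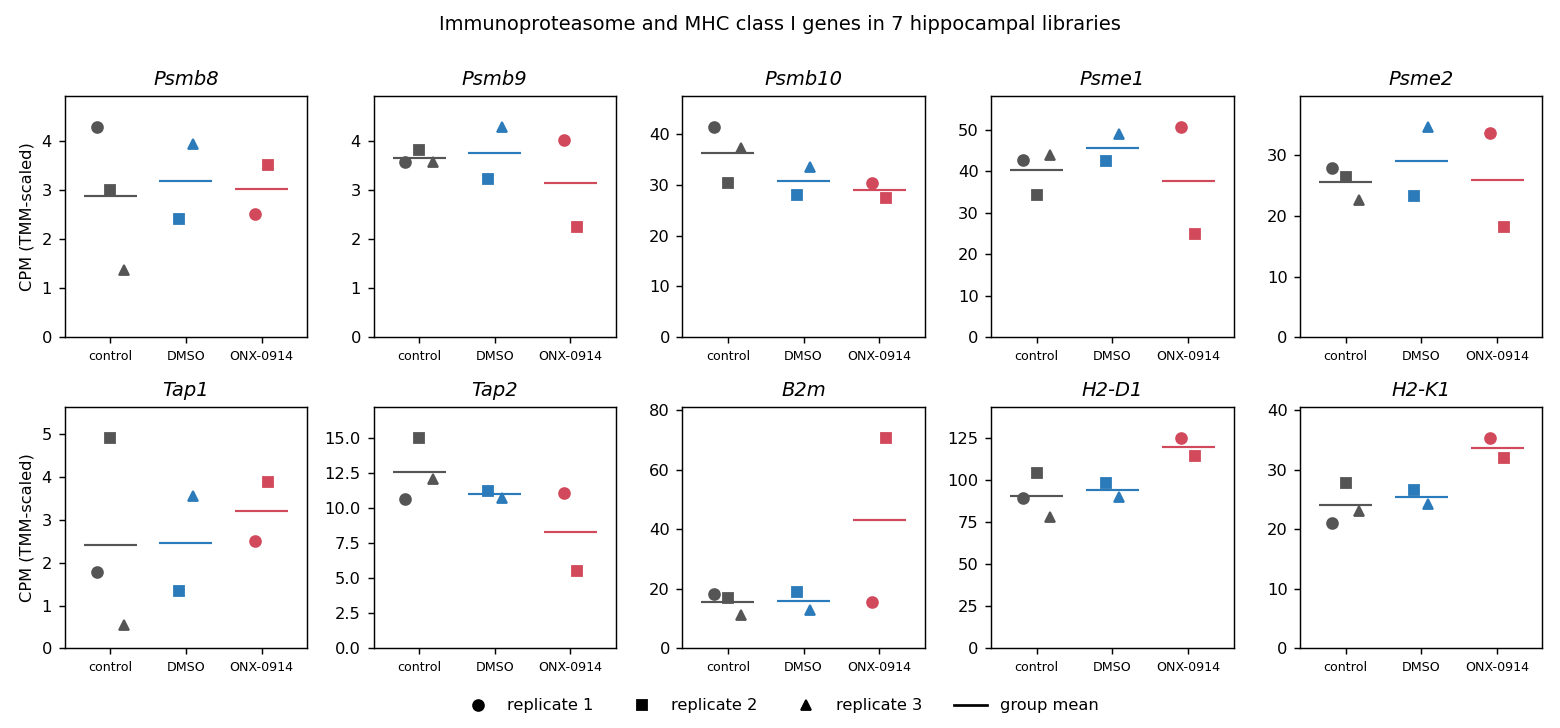
Levels of the 10 members in each library (y axis, CPM with TMM-scaled library sizes, from 0; points, libraries by group and replicate; lines, group means). Both ONX-0914 libraries sit above the other 5 for H2-D1 and H2-K1, and ONX-0914 replicate 2 alone is high for B2m, at 70.6 CPM.

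Marker lists of other cell types were summed in each library. Endothelial markers (9 genes, among them Cldn5 and Flt1) summed to 327 and 351 CPM in ONX-0914 replicates 1 and 2 and to 187 to 238 CPM in the control and DMSO libraries, and 8 of the 9 lay in both ONX-0914 libraries above all other 5, against 11.4% of all genes tested. Microglial markers (10 genes) summed to 368 and 502 CPM in the ONX-0914 libraries and to 311 to 403 CPM in the others, with 2 of 10 above all other 5 (the same 11.4% of all genes). Markers of border macrophages and other antigen-presenting cells (8 genes) summed to 26.7 and 32.3 CPM against 5.51 to 21.5 CPM. Of these sums Lyz2 alone made up 18.4 and 19.2 CPM in ONX-0914 replicates 1 and 2, and 13.1 CPM in control replicate 2, which had the 21.5 CPM. Lyz2 was also the only gene of this list that passed the filter on low counts. All 9 endothelial markers had a log2FC above 0 between ONX-0914 and control, with a median of 0.77, which became 0.97 when ONX-0914 replicate 1 was left out and 0.80 when replicate 2 was.

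Blood markers, consisting of 5 red cell genes and the neutrophil genes S100a8 and S100a9, summed to 851 CPM in ONX-0914 replicate 2, to 96.9 CPM in replicate 1 and to 30.6 to 46.4 CPM elsewhere. Among them Hba-a1, which encodes an α-globin, was at 332 CPM in this library, against 13.2 to 49.8 CPM in the other 6. Mitochondrially encoded genes took 3.71% of the counts in this library and 0.818% to 1.59% elsewhere. Markers of T and NK cells (7 genes) summed to 14.6 and 7.07 CPM in ONX-0914 replicates 1 and 2 and to 1.78 to 4.68 CPM elsewhere, with 5 of the 7 at 0 in all control libraries. Of these sums 9.56 and 5.95 CPM were Ptprc, a gene of all leukocytes including microglia. Cd3e, Cd3g, Cd8a and Nkg7, which are more particular to T and NK cells, had 0 to 2 reads each in every library. Cd4 had 16 reads in ONX-0914 replicate 1 and 0 to 3 elsewhere. Trac, the remaining gene of the list, had 3 and 11 reads in ONX-0914 replicates 1 and 2 (0.755 and 0.727 CPM) and 0 to 2 reads elsewhere. The part of these lists in the levels of H2-D1, H2-K1 and B2m was not tested.

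**Figure D3:**
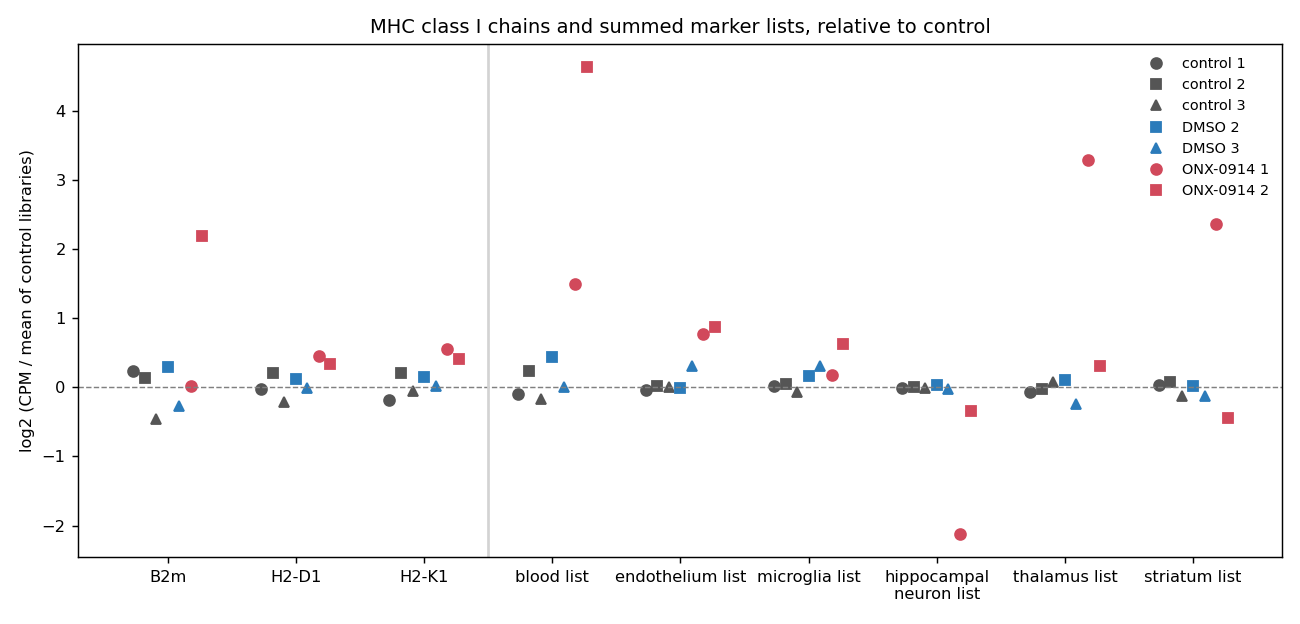
Levels of the 3 class I chains and summed levels of 6 marker lists in each library, as the log2 ratio to the mean of the control libraries (y axis; colours, groups; symbols, replicates; dashed line, control mean). ONX-0914 replicate 2 is high for both B2m and the blood list (851 CPM), both ONX-0914 libraries are high for the endothelium list, and ONX-0914 replicate 1 departs from the others in the 3 regional neuron lists.

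The 3 catalytic subunits of the immunoproteasome passed the test in none of the comparisons. For Psmb8 (ENSMUSG00000024338) the level was 4.28, 3.0 and 1.38 CPM in the control libraries, 2.42 and 3.93 CPM in the DMSO libraries and 2.52 and 3.5 CPM in the ONX-0914 libraries. These values rest on 5 to 12 reads in each library other than ONX-0914 replicate 2, which had 53, and the groups overlapped. The log2FC between ONX-0914 and control was 0.17 (SE 0.497, FDR = 0.873 in edgeR's quasi-likelihood test), with a 95% interval from -0.97 to 1.31. Thus, at this depth a change of Psmb8 from about 0.509 to 2.48 times the control level was compatible with the counts.

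For Psmb9 (ENSMUSG00000096727) the level was 3.57, 3.82 and 3.58 CPM in the control libraries, 3.22 and 4.28 CPM in the DMSO libraries, and 4.03 and 2.25 CPM in the ONX-0914 libraries. ONX-0914 replicate 2 was the lowest of the 7 libraries and replicate 1 the second highest. Psmb10 (ENSMUSG00000031897) was at 41.4, 30.3 and 37.2 CPM in the control libraries, 27.9 and 33.6 CPM in the DMSO libraries and 30.5 and 27.4 CPM in the ONX-0914 libraries, with overlapping groups. When ONX-0914 was compared with control, the log2FC was -0.35 (SE 0.415, FDR = 0.663) for Psmb9 and -0.33 (SE 0.207, FDR = 0.413) for Psmb10 in edgeR's quasi-likelihood test. The 95% interval of the ratio was 0.406 to 1.52 for Psmb9 and 0.573 to 1.11 for Psmb10. Between DMSO and control the log2FC was 0.14, 0.02 and -0.24 for Psmb8, Psmb9 and Psmb10 (FDR of 1 in each), and between ONX-0914 and DMSO it was 0.02, -0.37 and -0.09 (FDR = 0.987, 0.700 and 0.861).

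The PA28 subunits lay at the upper end of the levels in one ONX-0914 library and at the lower end in the other. Psme1 (ENSMUSG00000022216), which encodes PA28α, was at 42.8, 34.4 and 43.8 CPM in the control libraries, 42.4 and 48.9 CPM in the DMSO libraries, and 50.6 and 24.8 CPM in replicates 1 and 2 of the ONX-0914 group. Psme2 (ENSMUSG00000079197), which encodes PA28β, was at 27.8, 26.5 and 22.6 CPM in the control libraries, 23.3 and 34.6 CPM in the DMSO libraries, and 33.7 and 18.1 CPM in replicates 1 and 2 of the ONX-0914 group. For both genes ONX-0914 replicate 2 was the lowest of all libraries, with replicate 1 at 2.04 and 1.86 times its level. The log2FC between ONX-0914 and control was -0.12 (SE 0.300, FDR = 0.849) for Psme1 and -0.01 (SE 0.305, FDR = 0.990) for Psme2 in edgeR's quasi-likelihood test. Without ONX-0914 replicate 2 these values turned to 0.33 and 0.40 (FDR = 0.24 and 0.236), and without ONX-0914 replicate 1 they were -0.71 and -0.50 (FDR = 0.00179 and 0.0401). Against DMSO, the log2FC with ONX-0914 was -0.30 for Psme1 and -0.18 for Psme2 (FDR = 0.659 and 0.798), and between DMSO and control it was 0.18 and 0.17 (FDR of 1 in both). In Psme2, 18.4% of the windows of 100 bases also occur in Psme2b, so its counts are uncertain in this respect.

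The subunits of the peptide transporter were not called either. Tap1 (ENSMUSG00000037321) was at 1.78, 4.91 and 0.551 CPM in the control libraries, 1.34 and 3.57 CPM in the DMSO libraries and 2.52 and 3.90 CPM in the ONX-0914 libraries, on 2 to 18 reads outside ONX-0914 replicate 2. Tap2 (ENSMUSG00000024339) was at 10.7, 15 and 12.1 CPM in the control libraries, 11.3 and 10.7 CPM in the DMSO libraries, and 11.1 and 5.55 CPM in replicates 1 and 2 of the ONX-0914 group. The groups overlapped for Tap1, and for Tap2 ONX-0914 replicate 2 alone lay below the others. When ONX-0914 was compared with control, the log2FC was 0.47 (SE 0.688, FDR = 0.730) for Tap1 and -0.69 (SE 0.345, FDR = 0.317) for Tap2 in edgeR's quasi-likelihood test. Without ONX-0914 replicate 2 the log2FC of Tap2 was -0.20 (FDR = 0.712), and without ONX-0914 replicate 1 it was -1.21 (FDR = 0.000568). Compared with DMSO it was 0.53 (FDR = 0.747) for Tap1 and -0.49 (FDR = 0.538) for Tap2. The exons of Tap1 and Psmb9 overlap by 212 bases on opposite strands. Exons on the opposite strand also overlap those of Tap2 (533 bases with Gm15821 and 165 with Gm20496) and Psmb8 (498 with Gm20496). The same holds for Psmb7 (405 bases with Nek6) and Psme1 (14 with Emc9). The strand setting of the counting is not given in the sources used here, and the part of these overlaps in the counts was not tested.

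Of the 10 members, none was called at an FDR under 0.05 in edgeR's quasi-likelihood test in any of the 3 comparisons. Between ONX-0914 and control 0.114% of all genes tested were called (15 of 13152), between DMSO and control 0.0152%, and between ONX-0914 and DMSO 0.0456%. An unadjusted p under 0.05 was obtained for 2 members between ONX-0914 and control (B2m and H2-K1; 18.6% of all genes), for 0 between DMSO and control (2.65% of all genes) and for 1 between ONX-0914 and DMSO (B2m; 14.7% of all genes). The log2FC between ONX-0914 and control was above 0 for 5 members and below 0 for the other 5. The median log2FC of the members was 0.08 between ONX-0914 and control, 0.06 between DMSO and control and -0.03 between ONX-0914 and DMSO, while that of all genes tested was 0.05, -0.00 and 0.05. These comparisons share libraries, and their values are therefore given side by side.

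**Figure D4:**
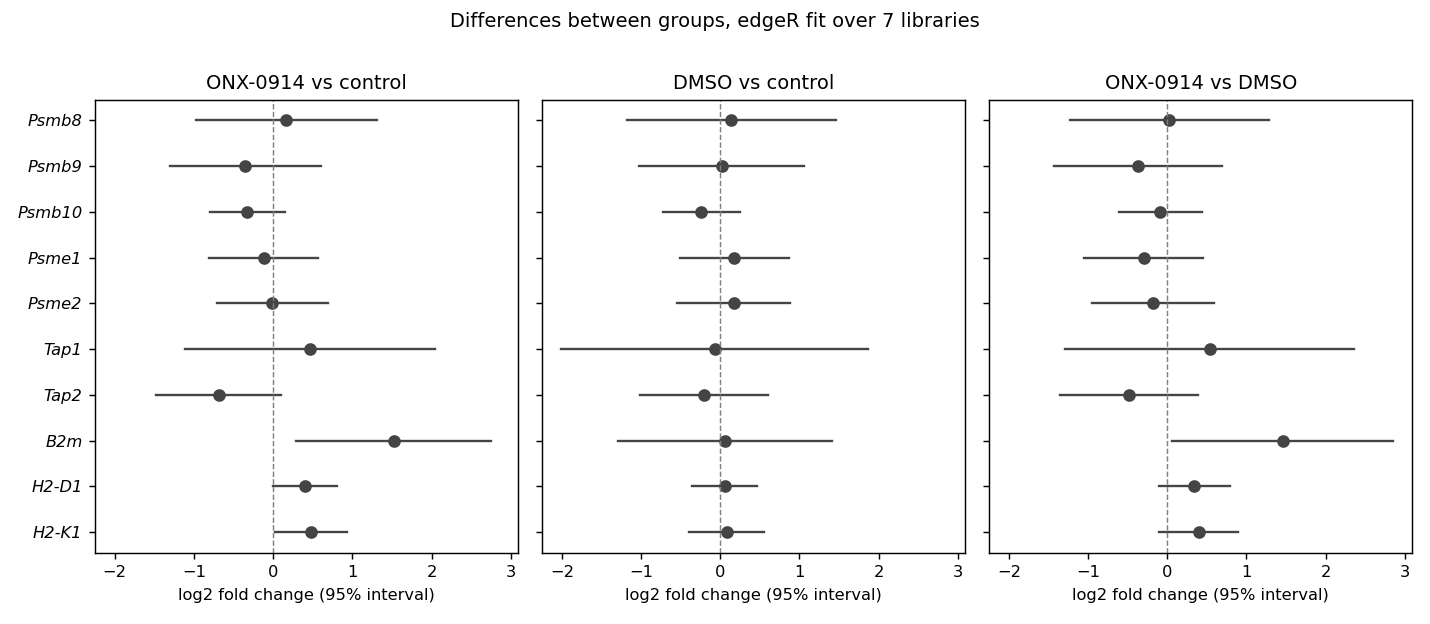
Log2FC of the 10 members in the 3 comparisons (x axis; points, estimates of the edgeR fit over 7 libraries; bars, 95% intervals; dashed line, 0). The interval of H2-D1 between ONX-0914 and control reaches 0 and those of B2m and H2-K1 lie above 0 before adjustment, and no member passes an FDR of 0.05.

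Between ONX-0914 and control, calls of members were absent with both ONX-0914 libraries in the main fit and present when either was left out. Without ONX-0914 replicate 1, 4 members were called between ONX-0914 and control (B2m higher, and Psme1, Psme2 and Tap2 lower), as were 7023 of 13713 genes tested (51.2%). Without ONX-0914 replicate 2, 1 of the 10 members, H2-D1, was called, as were 2594 of 13635 genes tested (19%). H2-D1 was thus called with replicate 1 only and the other 4 with replicate 2 only, and whether the libraries differ in these members could not be tested with 1 library each. ONX-0914 replicate 2 was the lowest of the 7 libraries for 5 members (Psmb9, Psmb10, Psme1, Psme2 and Tap2) and for 29.2% of all genes tested, and the highest for 1 (B2m) and for 30.3% of all genes.

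Within the control group, levels were compared per length, as reads per kilobase of annotated exon scaled to the library size (RPKM, mean ± SD, n = 3). The length takes in all annotated exons of a gene, so the order below depends on the annotation. H2-D1 was the most abundant member, at 35.2 ± 5.10 RPKM, and lay at the percentile 89.5 of all genes tested. It was followed by Psmb10 (21.3 ± 3.29), Psme1 (18.3 ± 2.35), B2m (18.0 ± 4.26) and Psme2 (14.5 ± 1.54), and among these 4 the control libraries of neighbours in the order overlapped, while those of H2-D1 lay above. H2-K1 (8.17 ± 1.18 RPKM) and Tap2 (3.33 ± 0.579 RPKM) were lower, and each was separated from its neighbours without overlap. Psmb9 (0.998 ± 0.0386), Psmb8 (0.853 ± 0.430) and Tap1 (0.441 ± 0.410) were the least abundant and lay at or under the percentile 12 of the genes tested. The values of Psmb8 overlapped with those of Psmb9 and of Tap1, whereas Psmb9 (lowest 0.974 RPKM) lay above Tap1 (highest 0.896 RPKM).

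The constitutive subunits that Psmb8, Psmb9 and Psmb10 replace were more abundant per length. In the control libraries they reached 157.7 ± 7.43 RPKM (Psmb7), 73.1 ± 4.23 RPKM (Psmb6) and 55.3 ± 5.22 RPKM (Psmb5). As a percentage of its counterpart per length, Psmb8 amounted to 2.40%, 1.45% and 0.787% of Psmb5 in the control libraries, 1.23% and 1.85% in those given DMSO and 2.18% and 3.89% in those given ONX-0914. Psmb9 amounted to 1.32% to 1.43% of Psmb6 in the control libraries, to 1.08% and 1.40% with DMSO and to 1.59% and 1.44% with ONX-0914. The lengths used take in all annotated exons of a gene, 3381 bases for Psmb8 and 3660 for Psmb9 against 899 for Psmb5 and 1872 for Psmb6. The percentages thus depend on the annotation. For both pairs the constitutive transcript was the higher in each of the 7 libraries, per length and in CPM alike.

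Psmb10 amounted to 14.6%, 11.5% and 14.3% of Psmb7 in the control libraries, 9.27% and 11.2% in the DMSO libraries and 10.1% in ONX-0914 replicate 1, but to 109% in ONX-0914 replicate 2. In that library it was the level of Psmb7 that differed, at 50.6 CPM against 521 to 604 CPM in the other 6, while Psmb10 was at 27.4 CPM against 27.9 to 41.4 CPM. In CPM Psmb7 thus stayed above Psmb10 there, and the 109% rests on annotated exon lengths of 3421 bases for Psmb7 and 1705 for Psmb10. Per length, the share of the 3 immunoproteasome subunits among the 6 catalytic subunits was 6.30% to 8.30% in the control libraries, 5.38% and 6.39% in the DMSO libraries, and 6.59% and 17.4% in ONX-0914 replicates 1 and 2. Without the pair of Psmb10 and Psmb7 this share was 1.14% to 1.74% in the control libraries, 1.13% and 1.57% with DMSO and 1.76% and 2.33% with ONX-0914. In the ONX-0914 libraries Psmb8 (2.52 and 3.5 CPM) lay within the control range, and Psmb9 (4.03 and 2.25 CPM) lay above and below it. Psmb5 lay below the control range in both (30.7 and 23.9 CPM), and Psmb6 did in replicate 2 (79.8 CPM). The value of Psmb8 in ONX-0914 replicate 1 rests on 10 reads.

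**Figure D5:**
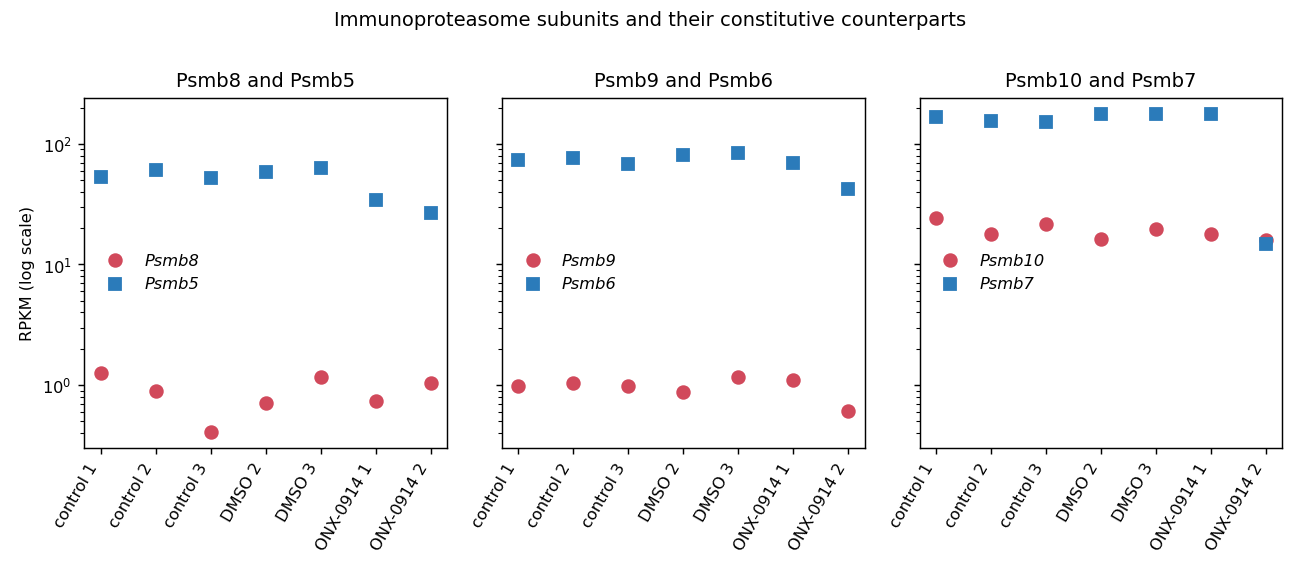
Levels of the immunoproteasome subunits (red circles) and of the constitutive subunits they replace (blue squares) in each library (y axis, RPKM on a log scale; x axis, libraries). Per length, the constitutive transcript is the higher in each library except for Psmb7 in ONX-0914 replicate 2, which is at the level of Psmb10. In CPM Psmb7 is above Psmb10 in that library too (50.6 against 27.4 CPM).

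Among the constitutive subunits, Psmb5, which carries the chymotrypsin-like activity, lay in both ONX-0914 replicates below the range of the other groups. Its level (ENSMUSG00000022193) was 47.4, 55.1 and 46.5 CPM in the control libraries, 52.3 and 56.4 CPM in the DMSO libraries and 30.7 and 23.9 CPM in ONX-0914 replicates 1 and 2, without overlap. Values of both ONX-0914 libraries below all other libraries were found for 11.3% of all genes tested. The log2FC between ONX-0914 and control was -0.87 (SE 0.194), a ratio of 0.546, with an FDR of 0.105 in edgeR's quasi-likelihood test and of 0.0381 with DESeq2. Between ONX-0914 and DMSO it was -1.0 (FDR = 0.132, and 0.0325 with DESeq2). With DESeq2, 2.95% of all genes tested were called between ONX-0914 and control and 1.86% between ONX-0914 and DMSO. The log2FC of Psmb5 between ONX-0914 and control was -1.07 without ONX-0914 replicate 1 and -0.70 without ONX-0914 replicate 2. Of the windows of 100 bases in Psmb5, 22.2% also occur in other annotated genes.

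For Psmb6 (ENSMUSG00000018286), the subunit with caspase-like activity, the level was 138, 144 and 128 CPM in the control libraries, 152 and 156 CPM in the DMSO libraries and 129 and 79.8 CPM in the ONX-0914 libraries, and its log2FC between ONX-0914 and control was -0.39 (SE 0.219, FDR = 0.360). This became -0.79 (FDR = 4.53e-05) when ONX-0914 replicate 1 was left out and -0.08 (FDR = 0.735) when replicate 2 was. Psmb7 (ENSMUSG00000026750), the subunit with trypsin-like activity, was at 521 to 604 CPM in the control and DMSO libraries and at 602 CPM in ONX-0914 replicate 1, which was 11.9 times its level of 50.6 CPM in replicate 2. A value under 1/2 of the lowest of the other 6 libraries was found in replicate 2 for 4.87% of all genes tested. Its log2FC between ONX-0914 and control was -0.73 (SE 0.758, FDR = 0.618 in edgeR's quasi-likelihood test), and it was -3.42 (FDR = 5.23e-13) when ONX-0914 replicate 1 was left out and turned to 0.16 (FDR = 0.391) when replicate 2 was.

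The other genes of the class I pathway did not pass the test with all 7 libraries. Of 12 genes that encode further proteasome activators, chaperones, peptidases and the transactivator Nlrc5, 11 were tested and none was called in any comparison, with a median log2FC of 0.14 between ONX-0914 and control (6 above 0 and 5 below). When ONX-0914 replicate 1 was left out the median was -0.23, with 4 of the 11 called higher and 3 lower (51.2% of all genes called), and when replicate 2 was, it was 0.09, with 1 called higher and 0 lower (19% of all genes). The chaperones of the endoplasmic reticulum Calr and Canx had the highest mean CPM of the list. Calr was at 811 to 911 CPM in the control libraries, 1200 and 1202 CPM in the DMSO libraries, and 996 and 439 CPM in ONX-0914 replicates 1 and 2. Canx was at 685 to 779 CPM, at 874 and 800 CPM, and at 861 and 333 CPM in the same order. For both the lower of the ONX-0914 libraries was replicate 2, below all other libraries. Tapbp, which encodes tapasin, the protein that bridges the transporter and the class I molecule, was at 13.2, 14.7 and 13.8 CPM in the control libraries, 10.5 and 15 CPM in the DMSO libraries, and 16.1 and 23.9 CPM in replicates 1 and 2 of the ONX-0914 group. It had the highest log2FC of the list, 0.54 (FDR = 0.299), and is named here after its value was seen.

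Of 9 further class I heavy chain genes, 6 were tested and none was called with all 7 libraries. H2-M3, 1 of the 6, passed the filter because of its levels with ONX-0914. Calls over the 6 in the fits without an ONX-0914 replicate are therefore not given. H2-Q4 was at 15.7 to 22.1 CPM in the control libraries, 22.3 and 22.5 CPM in the DMSO libraries, and 35.5 and 10.4 CPM in ONX-0914 replicates 1 and 2. H2-T23, which encodes the Qa-1 molecule, was at 8.45 to 11.8 CPM, at 8.05 and 9.28 CPM, and at 12.6 and 4.69 CPM in the same order. The ONX-0914 libraries thus lay on opposite sides of the control range for both genes, unlike H2-D1 and H2-K1.

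Genes that respond to interferon were examined because interferon induces the members. Of 15 interferon-induced genes, 11 were tested and none was called with all 7 libraries. Of the 11, Ifit1, Ifit3 and Igtp reached the level of the filter in fewer than 2 of the control and DMSO libraries and were thus tested because of their levels with ONX-0914, so that no median over the 11 is given. Both ONX-0914 libraries lay above all control libraries for 6 of the 15 listed genes and below them for 1. Some of these genes were not tested, and others passed the filter because of their levels with ONX-0914. The share over all genes tested, 16.9%, is thus no background for this count. For the same reason, calls over the 11 in the fits without an ONX-0914 replicate are not given. Ifit2, which had the highest mean CPM of the list, was at 13.6 to 16.8 CPM in the control and DMSO libraries, and at 35.7 and 9.19 CPM in ONX-0914 replicates 1 and 2. Gbp3, a guanylate-binding protein gene, was at 3.93 to 6.89 CPM in the control and DMSO libraries and at 10.1 and 5.55 CPM in the ONX-0914 libraries. For both genes replicate 1 alone was high. Without ONX-0914 replicate 1 their log2FC turned to -0.69 (Ifit2, FDR = 0.0124) and -0.08 (Gbp3).

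Of 12 receptors, kinases and transcription factors of interferon signalling, all were tested and none was called with all 7 libraries. Irf7 passed the filter on low counts because of its levels with ONX-0914, so that no median over the 12 is given. Jak1, the kinase shared by the type I and type II receptors, was at 202 to 208 CPM in the control libraries, 176 and 152 CPM in the DMSO libraries and 131 and 168 CPM in the ONX-0914 libraries. It was thus lower than the control range in both treated groups, with a log2FC of -0.46 between ONX-0914 and control (FDR = 0.226) and -0.33 between DMSO and control (FDR of 1). The former was -0.30 when ONX-0914 replicate 1 was left out and -0.65 when replicate 2 was. Jak2, which acts at the type II receptor, was at 30.8 to 39.6 CPM in the control libraries, 31.4 and 38.9 CPM in the DMSO libraries and 38.0 and 45.2 CPM in the ONX-0914 libraries, and these overlapped.

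Between pairs of members, the Pearson r of log2 CPM over the 7 libraries ranged from -0.917 to 0.922 (H2-D1 with H2-K1). Its median was 0.0354, with 23 of 45 pairs above 0. Without ONX-0914 replicate 2 the median was 0.174, with 30 of the 45 pairs above 0. The mean standardised log2 CPM of the members was highest in ONX-0914 replicate 1 (0.50) and was -0.33 in ONX-0914 replicate 2. It lay between -0.55 and 0.31 in the other libraries.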

How the data were processed

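Hippocampal RNA-seq of 7 libraries was analysed from the whole-number read counts per gene that the authors deposited, 1 table per library, without normalization. The submitters' processing notes name Trimmomatic 0.39, STAR 2.7.3a, featureCounts 2.00 and the build GRCm39. The annotation and the strand setting of the counting are not given in the sources used here. Reads assigned to no feature (4.75% to 6.49%) or to several (3.75% to 3.92%) stayed out of library sizes and tests, and the line for multimapping reads was 0 in each table, so that reads shared between paralogs may be missing from both.

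The tests were run with edgeR 4.0.16 (R 4.3.3), using filterByExpr over the 3 groups, TMM scaling (factors 0.965 to 1.10), and glmQLFit and glmQLFTest with 1 mean per group over all 7 libraries, a prior count of 0.125 and Benjamini–Hochberg adjustment over 13152 genes. CPM were computed with TMM-scaled library sizes, and RPKM with the exon lengths of GENCODE M21 (GRCm38), which gave a symbol to 52083 of 55416 identifiers. In the library with the lowest total, 3 reads correspond to about 1.07 CPM, and in the deepest to 0.198 CPM. Intervals of group differences are 95% intervals of the model. The steps were tested on simulated counts. The alternatives were DESeq2 1.42.0, scaling by RLE or by totals alone, no filter or a minimum of 10 counts per library, a prior count of 2, the legacy quasi-likelihood fit, a fit of only the 2 groups compared, replicate number as blocking factor, leaving out each library, and a thinned library.

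Named genes were the members, the constitutive catalytic subunits and, from each further list, genes called in any comparison or else the 2 tested genes with the highest mean CPM. The members, lists and tests were chosen with earlier results of these data known. The electrophysiology of the study was not analysed here.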

Additional observations from a re-analysis of the deposited data

How the results depend on the processing

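The counts of called genes and members, the medians of the members and the log2FC of the members, the constitutive subunits and 8 further list genes were recomputed under 17 alternatives (16 for Psmb8 and Tap1), while the calls of the lists were recomputed without each ONX-0914 library, and the summed markers and shares per length were not recomputed. Of the alternatives 1, thinning ONX-0914 replicate 2 to 3854624 counts, was chosen after seeing the data. Fits without a library of a group of 2 assume that the lone sample varies like the other groups. The depth limits Psmb8 and Tap1 most, which had no value when at least 10 counts were required in every library. With total counts alone the median log2FC of all genes was 0.19 in place of 0.05 between ONX-0914 and control and 0.18 in place of 0.05 between ONX-0914 and DMSO, and that of the members was 0.22 and 0.11. The cause of the changes below was not tested.

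For H2-D1 and H2-K1 the log2FC between ONX-0914 and control kept its sign under all 17 alternatives, at 0.30 to 0.54 (FDR = 0.0372 to 0.576) and 0.38 to 0.62 (FDR = 0.064 to 0.524), whereas that of B2m ranged from 0.03 to 2.20 (FDR = 9.67e-09 to 0.968).

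Between ONX-0914 and control, 388 genes were called with DESeq2, 578 with no filter (with 1 member, B2m), 3 with the compared groups alone and 1 with the replicate number as a block. Between DMSO and control these numbers were 9, 11, 141 and 0, and 0 with at least 10 counts in every library. Between ONX-0914 and DMSO they were 245, 297, 0 and 0, as well as 11 with RLE size factors, 3 with total counts and 10 with at least 10 counts in every library. Leaving out each library in turn gave 0 to 7023, 0 to 146 and 0 to 6313 called genes in the 3 comparisons, and 0 to 4 called members between ONX-0914 and control and between ONX-0914 and DMSO, where up to 51.2% and 46% of all genes tested were called.

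The correlation of the deviations of same-numbered libraries from their group means was 0.0162 and 0.0235 for control with ONX-0914 and -0.0851 and -0.0963 for control with DMSO. In a group of 2 libraries the deviations of one mirror those of the other. These values therefore cannot decide whether the replicate numbers pair the libraries. In the fit with the replicate number as a block, no gene was called between DMSO and control or between ONX-0914 and DMSO (0 in both), and the log2FC turned to -0.00221 for H2-Q4 (ONX-0914 against control), -0.18 for B2m (DMSO against control) and -0.20 for Psmb8 (ONX-0914 against DMSO).

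Changes of sign under other settings, none past the threshold, were the following. Between ONX-0914 and control, Psme1 turned to 0.010 and Psme2 to 0.12 with total counts, and Psme2 to 0.017 with at least 10 counts and to 0.082 after thinning. Between ONX-0914 and DMSO, Psmb8 turned to -0.047 with DESeq2, -0.019 with the earlier form of the quasi-likelihood fit and -0.088 after thinning, and Psmb10 to 0.043 with total counts.

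Leaving out each library in turn moved the median log2FC of the members between -0.065 and 0.18 (ONX-0914 against control), -0.15 and 0.15 (DMSO against control) and -0.28 and 0.19 (ONX-0914 against DMSO). The log2FC of these genes changed sign in at least 1 such fit. Between ONX-0914 and control the ranges were -0.20 to 0.51 for Psmb8, -0.71 to 0.13 for Psmb9, -0.71 to 0.33 for Psme1, -0.50 to 0.40 for Psme2, -0.040 to 1.58 for Tap1, -3.42 to 0.16 for Psmb7, -0.97 to 0.22 for Calr, -1.17 to 0.21 for Canx, -0.77 to 1.0 for H2-Q4, -1.15 to 0.27 for H2-T23, -0.69 to 1.27 for Ifit2 and -0.080 to 0.78 for Gbp3. Between DMSO and control they were -0.22 to 0.50 for Psmb8, -0.19 to 0.22 for Psmb9, -0.13 to 0.44 for Psme2, -0.86 to 1.08 for Tap1, -0.26 to 0.30 for B2m, -0.039 to 0.17 for H2-D1 and -0.0027 to 0.20 for H2-K1. Between ONX-0914 and DMSO they were -0.33 to 0.38 for Psmb8, -0.72 to 0.12 for Psmb9, -0.22 to 0.040 for Psmb10, -0.88 to 0.15 for Psme1, -0.66 to 0.24 for Psme2, -0.081 to 1.32 for Tap1, -1.0 to 0.0031 for Tap2 and -0.066 to 2.11 for B2m. Of these changes of sign, those of H2-Q4 and Ifit2 without ONX-0914 replicate 1 passed the threshold (FDR = 0.00579 and 0.0124).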

Other observations

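The 5 genes outside the members whose log2 CPM followed the mean standardised level of the members most closely over the 7 libraries were Itgb3, Col27a1, Cenpc1, Exoc3l and Adam17, with a Pearson r of 0.962 to 0.992. They were the closest of all genes tested and thus chosen for this pattern, and 7 libraries of 3 groups are few. Itgb3, which encodes an integrin, was at 9.06 CPM in ONX-0914 replicate 1, at 4.03 CPM in ONX-0914 replicate 2 and at 3.58 to 8.21 CPM in the control and DMSO libraries.

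Irf7, which encodes a transcription factor of the interferon response, was at 0.356, 0.545 and 1.10 CPM in the control libraries, at 2.42 and 0 CPM in the DMSO libraries and at 3.78 and 5.82 CPM in the ONX-0914 libraries. It is named after its values were seen. The control libraries held 1 to 4 reads of this gene, and it passed the filter on low counts because of its levels with ONX-0914.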
